A study of Arabidopsis thaliana with 8 samples.

Results

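The plant cell wall is a network of cellulose, hemicelluloses and pectins, and a growing cell enlarges by loosening and rebuilding it. The genes described here are the members of 9 gene families that make, cut, loosen or decorate that network: the α- and β-expansins (EXPA, EXPB), the expansin-like proteins (EXLA, EXLB), the xyloglucan endotransglucosylase/hydrolases (XTH), the glycosyl hydrolase family of endo-1,4-β-glucanases (GH9), the cellulose synthase-like glycan synthases (CSL), the TRICHOME BIREFRINGENCE-LIKE proteins (TBL) and a pectin methylesterase (PME61). They were chosen by symbol from the probe annotation of the array, one probe set for each gene, and 69 genes were found among the 13350 genes to which the annotation gives a probe set of their own. EXPA7, EXPA18 and GH9C1, which mark roots and root hairs, were left out of the 69 and used as markers. The CESA, FLA, AGP and PMEI families, whose names were also searched, had 0 named probe sets. Cellulose synthases, arabinogalactan proteins and pectin methylesterase inhibitors were therefore not analysed here.

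Expansins loosen the contacts between cellulose and hemicellulose without cutting either, which lets a wall under tension extend. XTH enzymes cut xyloglucan, the main hemicellulose of the primary wall, and can join the cut end to another chain, while CSLC proteins make its glucan backbone and CSLA proteins make mannans. Several TBL proteins add acetyl groups to xylan, mannan or other wall polymers. Cytokinin, the hormone applied in this study, controls cell division and expansion in shoots, and it reaches the genome through a phosphorelay that ends in the type-B response regulators.

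RNA levels were measured on 8 single-colour Affymetrix arrays, in 4 groups of 2. The groups were the arr1,10,12 mutant treated with 10 µM benzyladenine (BA, a synthetic cytokinin), the same mutant treated with DMSO, BA-treated wild type and DMSO-treated wild type. All seedlings were 14 days old, grown on sucrose medium in continuous light, and held for 1 h in liquid medium with the hormone or its solvent. The mutant lacks the type-B response regulators ARR1, ARR10 and ARR12; the labels do not name its alleles, and whether it is a single line is not given in the sources used here. The treatment protocol removed the roots, although the tissue label reads seedling. The deposited values are ratios: each gene is given relative to its own median over the 8 arrays or, for dim probe sets, apparently to a common floor. They can be compared between arrays and not between genes, so a level of 1 says nothing of how abundant a transcript was. Of the 69 genes, 22 had dim probe sets.

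The array of mutant DMSO replicate 1 stood apart from the other 7. Its control probe sets for the 5′ and 3′ ends of the same transcripts (6 pairs) differed by a median of -1.51 on the log2 scale, against -0.01 to 0.15 on the others. The control probe set for 25S rRNA read 197 on this array. It read 3.48 on mutant DMSO replicate 2 and 0.666 to 1.44 on the rest. The comparisons were therefore fitted on all 8 arrays and on the 7 arrays without mutant DMSO replicate 1. The 7-array fit leaves the mutant with 1 DMSO array, which is assumed to vary like the other groups. Where a comparison does not use this group, both fits give the same log2 change with a different standard error (SE). A gene passed at a limma adjusted p under 0.05 (Benjamini-Hochberg over all 22746 probe sets tested). The files of the wild-type arrays share a name prefix absent from the mutant files, and genotype cannot be told apart from it. The file of mutant DMSO replicate 1 has a prefix of its own, and the other mutant files share another. The quality of that array and its prefix therefore cannot be told apart, and the 8-array comparison of BA in the mutant crosses prefixes. Separate plants or cultures are not stated for the replicates, so the p-values cover the spread between these samples alone, which may be technical.

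The removal of roots given in the treatment protocol was set against 3 marker lists, of which only a few genes had named probe sets. Of 14 root and root-hair markers 3 were measured, and their summed relative value was 2.59 and 1.40 in the BA-treated mutant, 2.41 and 1.39 in the DMSO-treated mutant, 3.69 and 5.52 in BA-treated wild type and 3.5 and 4.15 in DMSO-treated wild type. The mutant arrays were thus lower in these root markers than the wild-type arrays under either treatment. GH9C1, a root-hair endoglucanase, passed as lower in the mutant in the 7-array fit (-0.97 ± 0.22 under BA, limma adjusted p = 0.0491, and -1.38 ± 0.27 under DMSO, adjusted p = 0.0440). With 8 arrays GH9C1 did not pass (limma adjusted p = 0.316 under BA and 0.312 under DMSO), and EXPA7 and EXPA18 passed in neither fit. Of 13 leaf and shoot markers 5 were measured, and they summed to 5.97 and 5.73 in the BA-treated mutant, 3.75 and 5.91 in the DMSO-treated mutant, 4.67 and 3.86 in BA-treated wild type and 5.22 and 4.92 in DMSO-treated wild type. RCA, a leaf marker, passed as higher in the BA-treated mutant in the 7-array fit (0.62 ± 0.12). It did not pass with 8 arrays (limma adjusted p = 0.463), and the other leaf markers passed in neither fit. Of 12 xylem and secondary wall markers 0 had a named probe set. In whole shoots, fewer cells of a type and less RNA per cell cannot be told apart, and the part of these markers in the results below was not tested.

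The 69 genes differed widely in how much they moved over the arrays. The highest array stood 1.17-fold (GH9B6) to 14.7-fold (XTH18) above the lowest, with a median of 2.12-fold, against 1.74-fold for all probe sets. These ranges include mutant DMSO replicate 1. It was the highest array for 20 of the 69 genes (29.0%, against 31.0% of all probe sets) and the lowest for 11 (all probe sets, 19.7%). EXLB1 and the EXLA genes had the widest ranges as families (8.65-fold, and a median of 8.22-fold for the 3 EXLA genes), whereas the median was 1.59-fold in GH9, 9 of whose 14 genes were dim. Among the 22 dim genes the median range was 1.58-fold and none passed in any comparison in either fit.

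**Figure D1:**
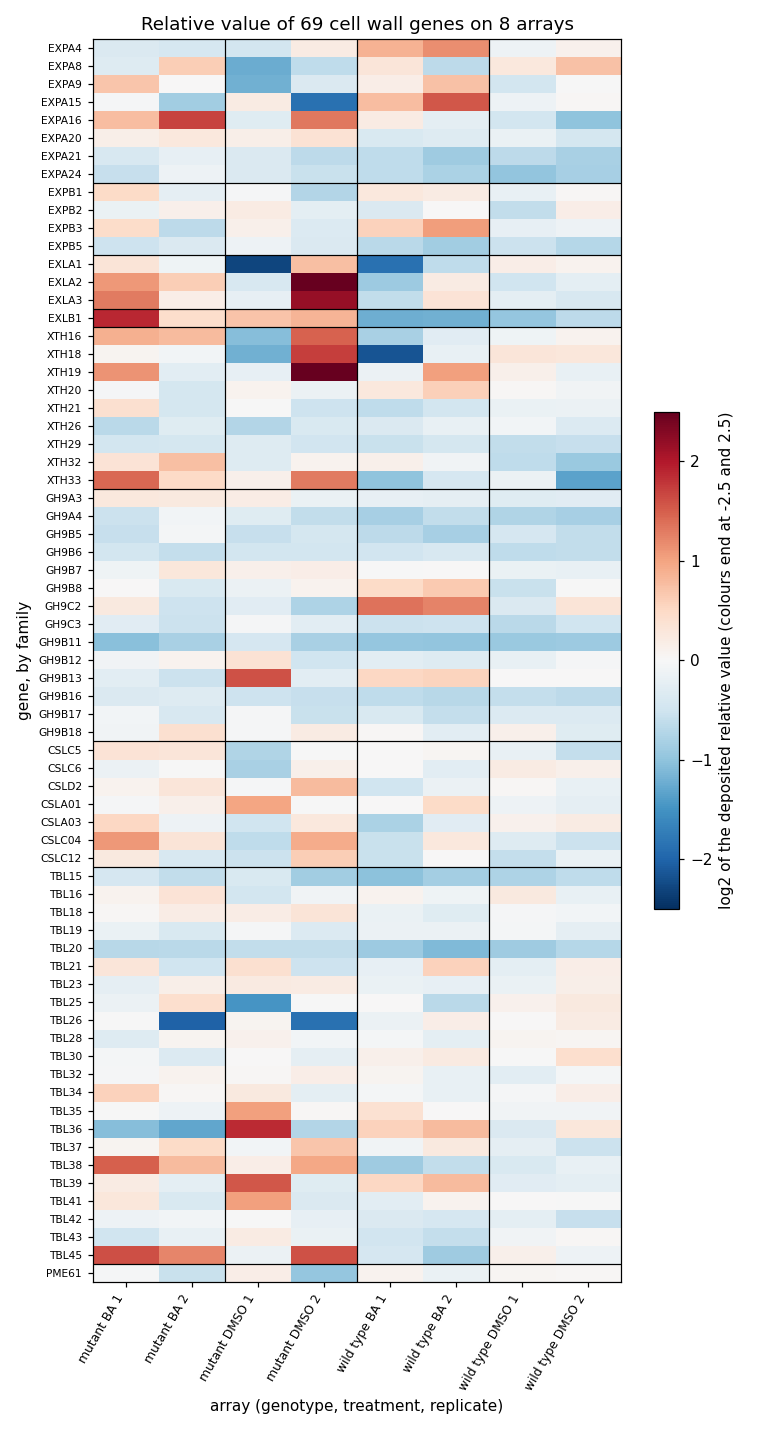
Heat map of the log2 relative value of the 69 genes (rows, by family, separated by black lines) on the 8 arrays (columns, by genotype, treatment and replicate). EXLB1, TBL38, TBL45 and XTH33 are red on both arrays of the BA-treated mutant and blue on both arrays of BA-treated wild type, and EXLA2 and XTH19 are darkest on mutant DMSO replicate 2, at 6.09 and 5.71.

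In the 7-array fit 9 of 69 genes passed between the BA-treated genotypes, 4 higher and 5 lower in the mutant (13% in all, against 7.68% of all probe sets, of which 4.12% were higher and 3.56% lower). Under DMSO 4 passed, all higher in the mutant (5.80%, against 4.22% of all probe sets, 2.33% higher and 1.89% lower). BA raised 1 gene in wild type and lowered none (1.45%, against 2.27% of all probe sets, 0.844% higher and 1.42% lower). None passed for BA in the mutant (0.0352% of all probe sets passed) or for the genotype difference in BA response (0.453%), where limma gave 12 of 69 (all probe sets, 6.47%) and 10 of 69 (11.6%) an unadjusted p under 0.05. Such a p was held by 17 genes for BA in wild type (15.5%), 19 between genotypes under DMSO (19.2%) and 27 under BA (25.3%).

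In the fit of all 8 arrays, 0 of 69 passed in any of the 5 comparisons. The share of all probe sets that passed was 0.022% for BA in wild type (0.0132% higher), 0% for BA in the mutant and for the difference, 0.00879% between genotypes under DMSO and 0.141% under BA. An unadjusted limma p under 0.05 was held, in the same order, by 6, 4, 3, 7 and 13 of the 69, against 7.24%, 5.34%, 8.66%, 13.5% and 13.2% of all probe sets. With array weights, which let limma give deviating arrays less say, 3 genes passed for BA in wild type, 6 passed for genotype under BA, and 0 passed elsewhere. The share of all probe sets that passed with these weights is not given here, so the weighted counts cannot be set against it.

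The median log2 change of the 69 was -0.02 for BA in wild type (all probe sets, -0.04). For BA in the mutant it was -0.04 with 7 arrays (all, 0.02) and 0.01 with 8 (all, -0.01). Between mutant and wild type it was 0.23 under BA, where all probe sets had 0.12, and under DMSO 0.12 with 7 arrays and 0.20 with 8, where all had 0.07 and 0.10. Under BA, 14 of the 69 genes lay more than 1 log2 unit from 0, 9 above and 5 below. The BA-treated mutant arrays lay wholly above the BA-treated wild-type arrays for 29 genes and wholly below them for 12, together 59.4% of the 69 where all probe sets had 59.5%. Groups that did not overlap made up 60.9% of the 69 for BA in wild type (all probe sets, 49.8%). Set against single mutant DMSO replicate 2, they made up 66.7% for BA in the mutant (61.6%) and 92.8% for genotype under DMSO (77.5%), and with both mutant arrays 23.2% (29.1%) and 42% (43.2%). Over both treatments, 11 genes lay higher on all 4 mutant arrays than on any wild-type array (15.9%, against 10.6% of all probe sets). They were EXLB1, EXPA20, EXPA24, EXPB5, GH9A3, GH9B16, TBL18, TBL20, TBL38, TBL42 and XTH33. Of these, EXPA24, EXPB5, GH9A3, GH9B16, TBL20 and TBL42 were dim. The gap could be very small: the lowest mutant and highest wild-type arrays read 0.616 and 0.613 for TBL20 and 0.667 and 0.663 for GH9B16. No gene lay lower on all 4 mutant arrays (3.04% of all probe sets), and without mutant DMSO replicate 1 there were 3, GH9B13, TBL30 and TBL36 (4.35%, against 8.05%). Without that array 17 genes lay higher (24.6%, against 17.5%), CSLC04, CSLD2, EXLA2, EXPA16, TBL45 and XTH16 being added.

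**Figure D2:**
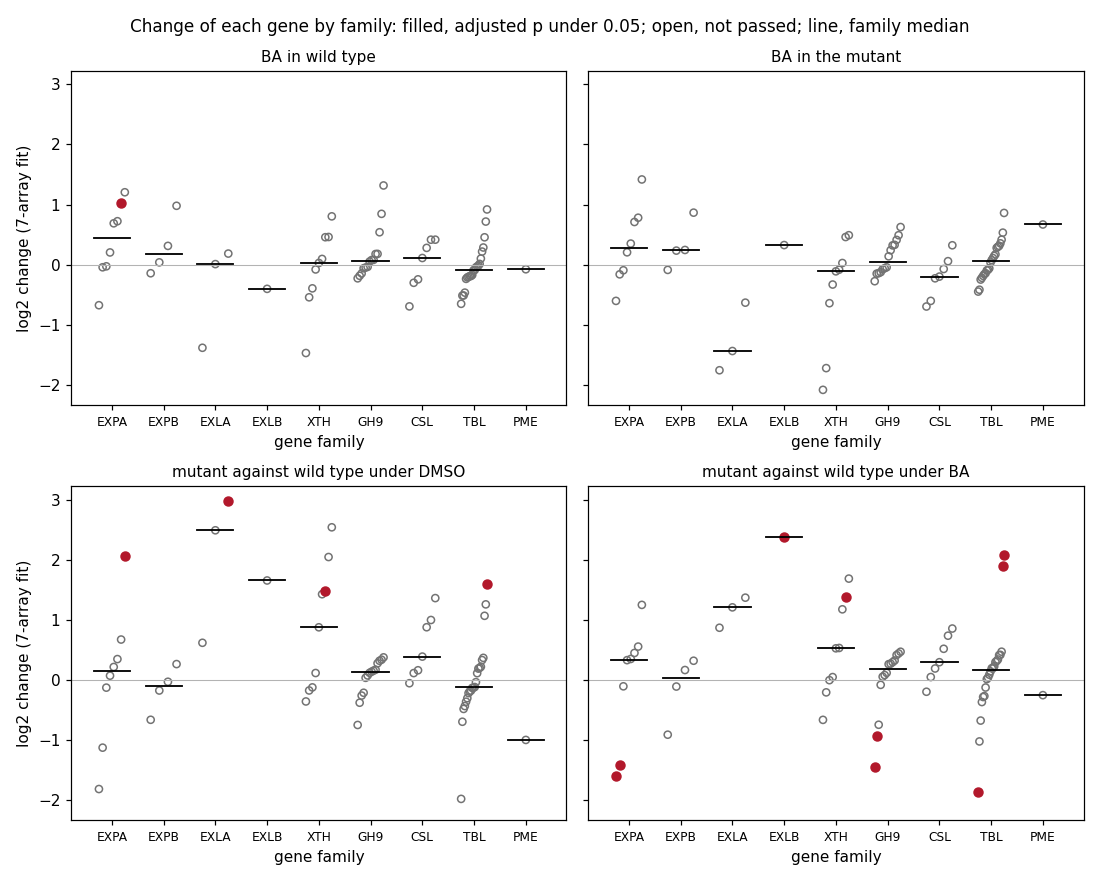
Log2 change of every gene in the 7-array fit, by family (x axis), for 4 comparisons (panels); filled points passed at an adjusted p under 0.05, open points did not, and lines are family medians. Between the BA-treated genotypes the 9 filled points lie on both sides of 0, from -1.86 (TBL36) to 2.38 (EXLB1), and under DMSO the 4 filled points lie above 0.

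Among the 8 α-expansins, the one BA raised in wild type was EXPA4. It read 1.84 and 2.25 in BA-treated wild type, against 0.917 and 1.08 in DMSO-treated wild type, 2.04-fold higher (log2 change 1.03 ± 0.16, SE, 7-array fit, limma adjusted p = 0.0319; 0.319 with 8 arrays). In the mutant it read 0.782 and 0.743 with BA, against 0.723 and 1.16 with DMSO, so the mutant arrays overlapped where the wild-type arrays did not. The BA effect there was -0.60 ± 0.20 with 7 arrays and -0.26 ± 0.25 with 8, and did not pass in either fit.

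Tested directly, the BA response of EXPA4 differed between mutant and wild type by -1.63 ± 0.26 (log2), which missed the threshold (limma adjusted p = 0.0656 with 7 arrays, 0.423 with 8). With BA, EXPA4 was 2.67-fold lower in the mutant than in wild type (-1.41 ± 0.16, 7-array limma adjusted p = 0.00627; 0.132 with 8 arrays), a comparison that shares its wild-type arrays with the BA effect above. The BA effect in wild type no longer passed without each single wild-type array in turn (adjusted p = 0.0847 to 0.217) or with the replicate number as a block (0.0573), and the genotype difference under BA no longer passed without wild-type BA replicate 2 (0.0526).

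EXPA15, another α-expansin, was also lower in the BA-treated mutant. It read 0.981 and 0.55 in the BA-treated mutant, against 1.70 and 2.93 in BA-treated wild type, 3.03-fold lower in the mutant (-1.60 ± 0.34, 7-array limma adjusted p = 0.0379; 0.382 with 8 arrays). That call was lost without wild-type BA replicate 2 (adjusted p = 0.197), either wild-type DMSO array (0.0906) or mutant BA replicate 2 (0.0817), with the replicate number as a block (0.0678) and with an offset of 1 before log2 (0.0610). In the DMSO-treated mutant it read 1.16 and 0.275, against 0.918 and 1.02 in DMSO-treated wild type. The 2 mutant arrays lay on either side of the wild-type pair. Its BA effect in the mutant was 1.42 ± 0.42 with 7 arrays, against the 0.275 alone, and 0.38 ± 0.67 with 8, and in wild type it was 1.2 ± 0.34 (7-array fit). None of these passed. The root markers, summed as above, were lower on every mutant array than on every wild-type array. EXPA15 was not, and a link to these markers was not tested.

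EXPA16 went the other way. It read 0.813 and 2.5 in the DMSO-treated mutant, against 0.723 and 0.495 in DMSO-treated wild type, and was 4.18-fold higher in the mutant in the 7-array fit, which uses the 2.5 alone (2.06 ± 0.42, limma adjusted p = 0.0481). With both mutant arrays the change was 1.25 on the log2 scale (adjusted p = 0.402). The 7-array call was lost when each wild-type array in turn was left out (adjusted p = 0.0781 to 0.217) with the replicate number as a block (0.105) after quantile normalization (0.0954) and with an offset of 1 before log2 (0.0897). With BA it read 1.70 and 3.24 in the mutant and 1.16 and 0.842 in wild type, arrays that did not overlap, and the change of 1.25 ± 0.34 did not pass (7-array limma adjusted p = 0.0799).

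Of the other α-expansins, none passed in a comparison in either fit. EXPA20 read 1.11 and 1.2 in the BA-treated mutant and 1.11 and 1.29 in the DMSO-treated mutant, against 0.772 and 0.8 in BA-treated wild type and 0.891 and 0.736 in DMSO-treated wild type. All its mutant arrays lay above all wild-type arrays, by 0.55 ± 0.15 under BA and 0.67 ± 0.18 under DMSO (7-array limma adjusted p = 0.0738 and 0.102). EXPA8 read 0.422 and 0.645 in the DMSO-treated mutant, against 1.2 and 1.66 in DMSO-treated wild type, and these arrays did not overlap. With BA the genotypes overlapped, at 0.803 and 1.53 in the mutant and 1.23 and 0.633 in wild type. EXPA9 read 1.13 and 1.67 in BA-treated wild type, against 0.727 and 0.997 in DMSO-treated wild type, a change of 0.69 that did not pass. EXPA21 and EXPA24 were dim and ranged over the arrays by 1.6-fold and 1.80-fold.

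None of the 4 β-expansins passed in either fit. EXPB3 had the largest BA effect among them in wild type, with 1.49 and 2.07 under BA and 0.867 and 0.914 under DMSO (0.98 ± 0.35, 7-array limma adjusted p = 0.247). In a fit of the 4 wild-type arrays alone it passed (0.98 ± 0.18, adjusted p = 0.0426). EXPB1, the β-expansin with the lowest p, read 1.40 and 0.853 in the BA-treated mutant, against 0.977 and 0.6 in the DMSO-treated mutant, and its change of 0.87 ± 0.29 with 7 arrays and 0.51 ± 0.31 with 8 did not pass (limma adjusted p = 0.594 and 0.709). These 2 groups overlapped. EXPB2 and EXPB5 were dim.

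The expansin-like genes, whose wall-loosening activity has not been established, held the highest genotype differences of the 69. Under BA this was EXLB1, and under DMSO it was EXLA2 with 7 arrays and EXLB1 with 8. EXLB1 read 3.70 and 1.36 in the BA-treated mutant and 1.63 and 1.79 in the DMSO-treated mutant, against 0.428 and 0.434 in BA-treated wild type and 0.509 and 0.637 in DMSO-treated wild type. Every mutant array, the doubted one included, was more than 2 times any wild-type array. Under BA it was 5.21-fold higher in the mutant (2.38 ± 0.42, 7-array limma adjusted p = 0.0219; 0.138 with 8 arrays). Under DMSO the difference was 1.65 ± 0.52 with 7 arrays and 1.59 with 8, and did not pass (limma adjusted p = 0.143 and 0.240). The call under BA was lost without each single wild-type array in turn (adjusted p = 0.0625 to 0.123) and with an offset of 1 before log2 (0.0770). Without either BA-treated mutant array it was kept, with changes of 1.66 and 3.10. The BA effect on EXLB1 was -0.40 in wild type and 0.33 in the mutant (7 arrays), and neither passed.

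EXLA2 was the gene with the highest single value, 6.09 on mutant DMSO replicate 2, while mutant DMSO replicate 1 read 0.761 and the wild-type DMSO arrays 0.709 and 0.849. The 7-array fit, with the first of these values alone for the mutant, gave a 7.85-fold higher level in the DMSO-treated mutant (2.97 ± 0.44, limma adjusted p = 0.0203). With both mutant arrays the change was 1.47 (adjusted p = 0.496), and from replicate 1 alone it was -0.03. The 7-array call was also lost without each wild-type DMSO array (adjusted p = 0.109 and 0.116). Under BA, EXLA2 read 2.13 and 1.525 in the mutant, against 0.53 and 1.15 in wild type. These arrays did not overlap, and the change of 1.21 ± 0.36 did not pass (7-array limma adjusted p = 0.0987).

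EXLA1 and EXLA3 lie next to each other on chromosome 3 in the RefSeq annotation of TAIR10.1, and both were higher on mutant DMSO replicate 2 than on replicate 1. EXLA3 read 2.45 and 1.13 in the BA-treated mutant and 0.872 and 4.5 in the DMSO-treated mutant, against 0.652 and 1.27 in BA-treated wild type and 0.847 and 0.759 in DMSO-treated wild type. Its 7-array difference under DMSO was 2.49 ± 0.52, just short of the threshold (limma adjusted p = 0.0516), and the 8-array one was 1.30 ± 0.79 (0.488). EXLA1 read 0.274 and 0.641 in BA-treated wild type, against 1.12 and 1.07 in DMSO-treated wild type, a change of -1.38 ± 0.38 that did not pass (adjusted p = 0.134, 7 arrays). In the mutant it read 1.26 and 0.932 with BA and 0.204 and 1.68 with DMSO. Its lowest value of all arrays was on mutant DMSO replicate 1. For BA in the mutant, EXLA2 had the lowest p of the 69 genes, with a change of -1.76 ± 0.44 against the single array of 6.09 (7-array limma adjusted p = 0.367), and with 8 arrays the change was -0.26.

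**Figure D3:**
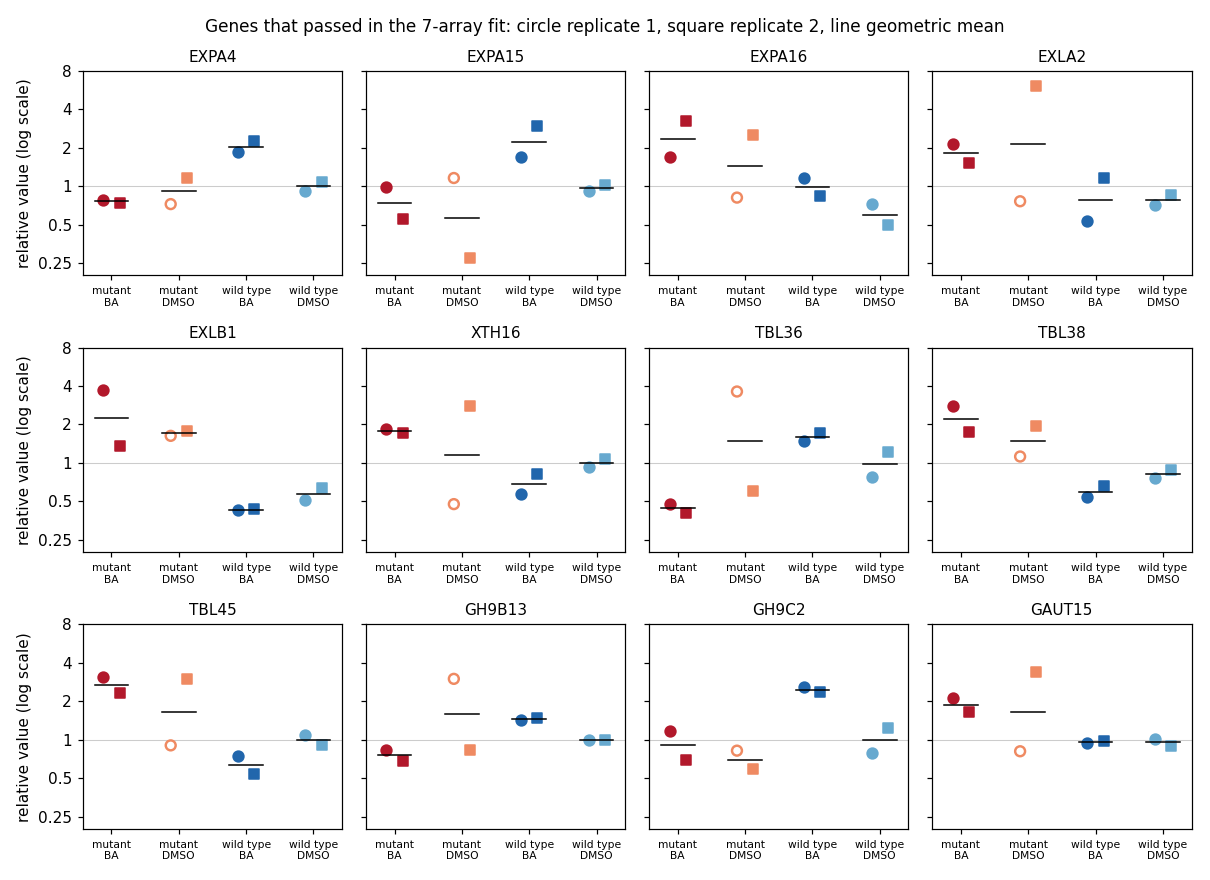
Relative value (log scale) on every array of the 11 genes of the families that passed in at least 1 comparison of the 7-array fit, and of GAUT15; circles are replicate 1, squares replicate 2, lines geometric means, and the open circle is mutant DMSO replicate 1. EXLB1 and TBL38 separate the genotypes on all arrays, whereas EXLA2, XTH16 and TBL45 are high on mutant DMSO replicate 2 and not on the open circle.

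In the XTH family 1 of 9 genes passed. XTH16 read 1.86 and 1.72 in the BA-treated mutant, against 0.568 and 0.826 in BA-treated wild type, 2.61-fold higher (1.39 ± 0.20, 7-array limma adjusted p = 0.0124; 0.461 with 8 arrays). That difference passed the 7-array fit without each other array in turn (adjusted p = 0.0124 to 0.0480). Under DMSO it read 0.476 and 2.79 in the mutant, against 0.931 and 1.07 in wild type. With the 2.79 alone the mutant was 2.80-fold higher (1.48 ± 0.25, adjusted p = 0.0273), with both mutant arrays the change was 0.21 (adjusted p = 0.910), and with the 0.476 alone XTH16 passed as lower in the mutant (-1.07, limma adjusted p = 0.0249). The sign of the DMSO difference thus rests on which mutant array is used. That 7-array call was also lost without each wild-type DMSO array (adjusted p = 0.128 and 0.123), with the replicate number as a block (0.0648) and after quantile normalization (0.0775).

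Like XTH16, which lies elsewhere, the chromosome 4 neighbours XTH18 and XTH19 behaved like the EXLA genes on the DMSO-treated mutant arrays. XTH19 read 0.863 and 5.71 there, against 1.1 and 0.881 in DMSO-treated wild type, and XTH18 read 0.432 and 3.29, against 1.235 and 1.22. XTH19 also differed between the arrays of each BA-treated group, with 2.19 and 0.832 in the mutant and 0.903 and 2.03 in wild type. Its difference in BA response, -2.54 ± 0.82, was the largest of the 69 in size in the 7-array fit and did not pass (limma adjusted p = 0.293). With 8 arrays it was -1.18 ± 1.31. XTH18 was at 0.224 and 0.875 in BA-treated wild type, a difference to the DMSO arrays of -1.47 ± 0.55 that did not pass (adjusted p = 0.266), though without the 0.875 it did (-2.45, limma adjusted p = 0.0219).

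XTH33 separated the genotypes without passing. It read 2.72 and 1.41 in the BA-treated mutant and 1.095 and 2.47 in the DMSO-treated mutant, against 0.498 and 0.747 in BA-treated wild type and 0.905 and 0.395 in DMSO-treated wild type. The 7-array differences were 1.69 ± 0.46 under BA and 2.04 ± 0.57 under DMSO (limma adjusted p = 0.0788 and 0.108), the second being 1.46 ± 0.57 with 8 arrays. XTH32 read 1.09 and 0.937 in BA-treated wild type, against 0.642 and 0.523 in DMSO-treated wild type, 1.75-fold higher (0.80 ± 0.20), and did not pass (7-array limma adjusted p = 0.102). XTH20 differed by -0.66 ± 0.19 between the BA-treated genotypes (7-array limma adjusted p = 0.0877). XTH21, XTH26 and XTH29 were dim.

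Of the 22 TBL genes, 3 passed. TBL45 read 3.08 and 2.34 in the BA-treated mutant, against 0.744 and 0.541 in BA-treated wild type, 4.23-fold higher (2.08 ± 0.22, 7-array limma adjusted p = 0.00473, the lowest of the 69 genes; 0.218 with 8 arrays). Under DMSO it read 0.904 and 3.00 in the mutant, against 1.09 and 0.911 in wild type, so mutant DMSO replicate 1 was level with wild type and replicate 2 was as high as the BA-treated mutant. The 7-array DMSO difference was 1.59 ± 0.27 (adjusted p = 0.0274), the 8-array one 0.72 (0.553) and the one from replicate 1 alone -0.14. The 7-array call was also lost without each wild-type DMSO array (adjusted p = 0.0992 and 0.152) and after quantile normalization (0.0600). TBL45 belongs to the family by sequence, and no activity is given for it here.

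TBL38, reported as a homogalacturonan acetylesterase of seed coat cells, separated the genotypes on every array. It read 2.81 and 1.74 in the BA-treated mutant and 1.12 and 1.96 in the DMSO-treated mutant, against 0.539 and 0.656 in BA-treated wild type and 0.768 and 0.877 in DMSO-treated wild type. Under BA it was 3.72-fold higher in the mutant (1.89 ± 0.24, 7-array limma adjusted p = 0.00844; 0.132 with 8 arrays). TBL38 and TBL45 kept this call without each other array in turn (adjusted p of at most 0.0496 and 0.0382). Under DMSO the difference was 1.26 ± 0.30 with 7 arrays and 0.85 ± 0.34 with 8, and did not pass (limma adjusted p = 0.0731 and 0.355).

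TBL36 was lower in the BA-treated mutant, with 0.479 and 0.407, against 1.49 and 1.72 in BA-treated wild type (-1.86 ± 0.23, 3.63-fold lower, 7-array limma adjusted p = 0.00794; 0.374 with 8 arrays). The call was lost without wild-type BA replicate 2 (adjusted p = 0.0663). With DMSO it read 3.625 and 0.602 in the mutant, against 0.777 and 1.22 in wild type, the first value again being the doubted array. Its difference in BA response was -1.16 ± 0.37 with 7 arrays and -2.46 with 8, and did not pass in either fit (limma adjusted p = 0.287 and 0.591).

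Among TBL genes that did not pass, TBL39 read 1.42 and 1.74 in BA-treated wild type, against 0.819 and 0.845 in DMSO-treated wild type, 1.89-fold higher, and missed the threshold (0.92 ± 0.19, 7-array limma adjusted p = 0.0719). In the 4 wild-type arrays alone it passed (adjusted p = 0.0278). TBL37 had a genotype difference under DMSO of 1.07 ± 0.25 with 7 arrays and 0.69 ± 0.30 with 8, and did not pass (limma adjusted p = 0.0743 and 0.393). TBL26 split the mutant by replicate number, with 0.999 and 0.246 under BA and 1.04 and 0.273 under DMSO, against 0.902 to 1.16 on the 4 wild-type arrays. Left with mutant BA replicate 1 and DMSO replicate 2, it passed for BA in the mutant (1.87, limma adjusted p = 0.0297), a comparison across replicate numbers. EXPA7 and EXPA18, the root-hair expansins, were also lower on replicate 2 than on replicate 1 in both mutant groups (EXPA7, 0.836 and 0.33 with BA and 0.781 and 0.422 with DMSO).

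Some TBL genes are known for products that acetylate xylan or mannan, and none of those measured passed in either fit. TBL28, TBL30, TBL32, TBL34 and TBL35, of the xylan acetyltransferase clade, ranged over the arrays by 1.34-fold, 1.70-fold, 1.35-fold, 1.75-fold and 2.22-fold. For TBL35 the highest array was mutant DMSO replicate 1 (2.04, with 0.919 to 1.31 elsewhere). The probe set of TBL32 is of a kind whose probes can be shared by several transcripts, the only such one among the 69. Of the mannan acetyltransferase genes, TBL23 ranged by 1.36-fold, TBL26 by 4.70-fold through its low mutant replicates 2, and TBL25 by 3.70-fold, with its lowest value, 0.362, on mutant DMSO replicate 1.

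Endoglucanases of the GH9 family trim cellulose and other β-1,4-glucans, and 2 of the 14 genes passed, both lower in the BA-treated mutant. GH9C2, of the class that carries a cellulose-binding module, read 1.18 and 0.699 in the BA-treated mutant, against 2.57 and 2.36 in BA-treated wild type (-1.44 ± 0.30, 2.71-fold lower, 7-array limma adjusted p = 0.0374; 0.200 with 8 arrays). In wild type with DMSO it read 0.783 and 1.25, and the BA effect of 1.32 ± 0.30 was the highest of the 69 and did not pass (adjusted p = 0.0893; 0.0345 in the 4 wild-type arrays alone). In the DMSO-treated mutant it read 0.822 and 0.588. GH9C2 thus did not separate the genotypes on all arrays, as the summed root markers did, and a link to these markers was not tested. The genotype call was lost when each wild-type array in turn was left out (adjusted p = 0.0566 to 0.166), without mutant BA replicate 2 (0.0789), with the replicate number as a block (0.0666) and after quantile normalization (0.0506).

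GH9B13 read 0.835 and 0.687 in the BA-treated mutant, against 1.43 and 1.48 in BA-treated wild type (-0.94 ± 0.15, 1.92-fold lower, 7-array limma adjusted p = 0.0151; 0.482 with 8 arrays). The call was lost without either wild-type BA array (adjusted p = 0.0767 and 0.113). On the DMSO-treated mutant arrays it read 3.00 and 0.835, against 1.00 on both wild-type DMSO arrays. The first of these is again mutant DMSO replicate 1. GH9B8 read 1.01 and 0.765 in the BA-treated mutant and 1.39 and 1.56 in BA-treated wild type, and neither this difference nor its BA effect in wild type (0.85 ± 0.22) passed. The membrane-anchored class was measured through GH9A3 and GH9A4, both dim, and GH9A3 was 1.38-fold higher in the BA-treated mutant without passing (0.47 ± 0.12, 7-array limma adjusted p = 0.0710).

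No CSL gene passed in either fit. CSLD2, of the subfamily known for tip-growing cells such as root hairs, had the lowest p of the 7: it read 0.986 and 1.74 in the DMSO-treated mutant, against 1.01 and 0.884 in DMSO-treated wild type (0.88 ± 0.22, 7-array limma adjusted p = 0.0817; 0.47 ± 0.29 with 8 arrays). Of the xyloglucan synthases, CSLC04 read 2.13 and 1.25 in the BA-treated mutant, against 0.677 and 1.2 in BA-treated wild type, and 0.648 and 1.905 in the DMSO-treated mutant, against 0.803 and 0.685 in DMSO-treated wild type. Its differences of 0.85 ± 0.34 under BA and 1.36 ± 0.41 under DMSO did not pass (7 arrays), and the second was 0.58 ± 0.55 with 8. CSLC5, CSLC6 and CSLC12 ranged over the arrays by 2.12-fold, 2.05-fold and 2.32-fold. CSLA03, of the mannan synthases, read 0.577 and 0.82 in BA-treated wild type, against 1.08 and 1.15 in DMSO-treated wild type, and the change of -0.69 ± 0.25 did not pass (7-array limma adjusted p = 0.255).

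PME61, a pectin methylesterase and the one gene of its family with a named probe set, read 1.13 and 0.514 in the DMSO-treated mutant, against 1.04 and 1.02 in DMSO-treated wild type. Its 7-array difference of -0.998 ± 0.25 did not pass (limma adjusted p = 0.0852), and the 8-array one was -0.43.

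Mutant DMSO replicates 1 and 2 differed more in these genes than the arrays of any other group. They were more than 2-fold apart for 19 of 69 genes (27.5%, against 17.9% of all probe sets), with replicate 2 higher for 12 of the 19 and replicate 1 for 7. In the other groups it was 5 genes in the BA-treated mutant (7.25%, against 3.34%), 4 in BA-treated wild type (5.80%, against 0.972%) and 1 in DMSO-treated wild type (1.45%, against 0.747%). Replicate 2 was the higher one, by 8.22-fold for EXLA1, 8.0-fold for EXLA2, 7.62-fold for XTH18, 6.62-fold for XTH19, 5.86-fold for XTH16 and 5.16-fold for EXLA3. Replicate 1 was higher by 6.02-fold for TBL36, 4.21-fold for EXPA15, 3.82-fold for TBL26 and 3.59-fold for both TBL39 and GH9B13. All genotype differences under DMSO and BA effects in the mutant in the 7-array fit rest on replicate 2.

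**Figure D4:**
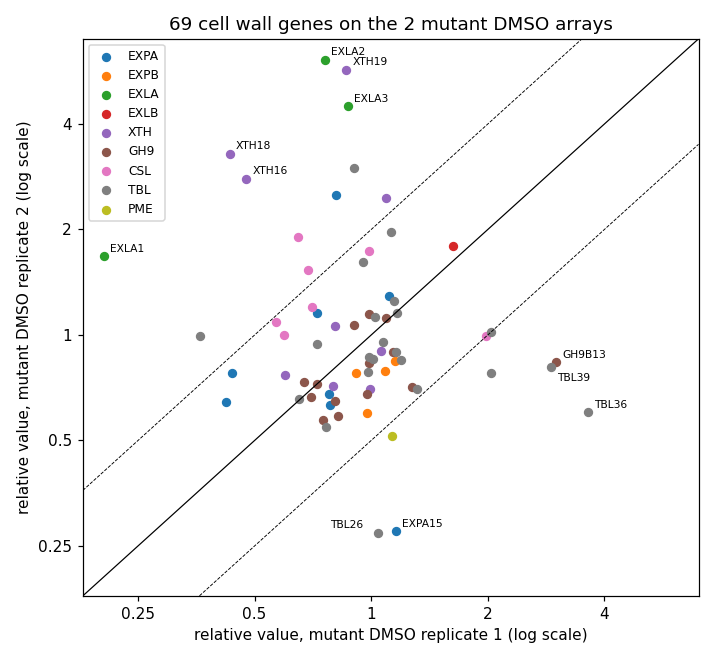
Relative value of the 69 genes on mutant DMSO replicate 2 (y axis) against replicate 1 (x axis), both on log scales, coloured by family; the solid line is equality and the dashed lines are 2-fold. All 3 EXLA genes and XTH16, XTH18 and XTH19 lie more than 5-fold above equality, and TBL36 lies 6.02-fold below it.

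A further list held other cell wall genes by symbol, 8 of which had a named probe set. One of these, PRP39, is an RNA-processing factor that matched by its letters and is not a wall gene. Of the other 7, GAUT15, of the galacturonosyltransferase family of pectin synthesis, passed. It read 2.11 and 1.64 in the BA-treated mutant and 0.813 and 3.37 in the DMSO-treated mutant, against 0.942 and 0.982 in BA-treated wild type and 1.02 and 0.892 in DMSO-treated wild type. It was 1.93-fold higher in the mutant under BA (0.95 ± 0.17, 7-array limma adjusted p = 0.0213; 0.514 with 8 arrays) and 3.54-fold higher under DMSO from replicate 2 alone (1.82 ± 0.20, adjusted p = 0.0116; 0.80 on the log2 scale and adjusted p = 0.559 with 8 arrays). ADPG1, BGAL16, COB, IRX15, LAC16 and SKU5 did not pass in any comparison in either fit. COB and SKU5, which encode membrane-anchored proteins of directed cell growth, read 0.256 and 0.143 on mutant DMSO replicate 1, their lowest arrays.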

How the data were processed

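The deposited table, a linear ratio for each probe set and array, was used as given. No label names the unit; it was inferred, since 70.1% of probe sets centre on 1 (median over 8 arrays within 0.005), and a probe set whose median lies lower is called dim here. How the authors summarised, background-corrected and scaled the arrays is not given in the sources used here. Signal over background was not analysed here. The number of arrays limits the precision.

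Groups and replicate numbers came from the sample titles. Of 22746 non-control probe sets, 13513 have 1 gene in the annotation, 503 several and 8730 none; the 69 genes were all found in RefSeq's TAIR10.1 table by gene ID, and none had more than 1 probe set. The log2 values were fitted with limma (version 3.58.1, R 4.3.3), with 1 mean per group and empirical Bayes moderation. The fits were also run on simulated data in which each probe set had the same spread on every array. That check does not cover a deviating array such as mutant DMSO replicate 1.

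Genes named in each comparison were those that passed in either fit, at most 8 in each direction, or the 2 with the lowest p, the lowest p of each family and the 3 lowest among the other wall genes; all others named were chosen after their values were seen. The members, the other wall genes and the marker lists were chosen with earlier results of these data known. The alternatives were an offset, quantile normalization, array weights, a replicate block, no dim probe sets, arrays of 1 file-name prefix and each array left out. No sequences are shown.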

Additional observations from a re-analysis of the deposited data

How the results depend on the processing

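Deviations of same-numbered arrays from their group means correlated from -0.174 to 0.124 over all probe sets. With 2 arrays per group, these values cannot settle whether the replicate numbers pair the arrays. The highest was between the BA-treated and the DMSO-treated mutant, where TBL26, EXPA7 and EXPA18 were lower on replicate 2 under either treatment. With the replicate number as a block, the 7-array counts of genes that passed became 0 for BA in wild type (1 without it), 2 between genotypes under DMSO (4) and 7 under BA (9), and the 8-array counts stayed 0. With array weights and 8 arrays, 3 genes passed for BA in wild type (EXPA4, GH9C2 and XTH32) and 6 between the BA-treated genotypes. With array weights and 7 arrays, EXPA4 and GH9C2 passed again for BA in wild type, with TBL39 in place of XTH32. The 4 wild-type arrays alone gave 4 for BA in wild type (EXPA4, EXPB3, GH9C2 and TBL39). Quantile normalization gave 1 for the difference in BA response (EXPA4, adjusted p = 0.0494) and 1 between genotypes under DMSO with 7 arrays, and 1 under BA with 8. An offset of 1 before log2 and leaving out dim probe sets kept each count within 1.5 times the main one. The choice of probe set could not change a count, since no gene had more than 1.

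Leaving out 1 array at a time, the 8-array counts ran from 0 to 1 for BA in wild type, 0 to 15 for BA in the mutant, 0 to 12 for the difference, 0 to 11 under DMSO and 0 to 9 under BA. Of these, 15, 12 and 11 came without mutant DMSO replicate 2, and 9 without either mutant DMSO array. The 7-array counts ran from 0 to 4, 0 to 1, 0 to 1, 0 to 12 and 6 to 14 in the same order. Without either wild-type DMSO array the count under DMSO was 0, without either BA-treated mutant array 12, and without mutant BA replicate 1 the count under BA was 14. Without mutant DMSO replicate 2 (8 arrays) the sign turned for EXLA2 (1.24, with -1.76 without replicate 1) and EXPA15 (-0.66, with 1.42) for BA in the mutant, and between genotypes under DMSO for EXLA2 (-0.0279, with 2.97), PME61 (0.14, with -0.998), TBL45 (-0.14, with 1.59) and XTH16 (-1.07, with 1.48). Without mutant BA replicate 1 it turned for EXPA15 for BA in the mutant (-0.04). The cause was not tested. For the counts under the alternatives in this section, the share of all probe sets that passed is not given here. Whether those counts are particular to these genes was therefore not assessed.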
